A study of Mus musculus with 2 samples.

Results

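Type 1 and type 17 effector cytokines were followed through the lymphocytes of mouse ear epidermis. The members were named as genes and not picked by a measured threshold: Ifng, Tnf, Lta and Il2 for the type 1 side, Il17a, Il17f and Il22 for the type 17 side, and Spp1. They are 8 of the 31053 genes in the count matrices, and all 8 had UMIs in both libraries. A UMI, or unique molecular identifier, marks a captured RNA molecule, so a UMI count is a count of molecules. RNA was measured in 2 single-cell libraries of cells sorted as live, CD45+, EpCAM- and MHC-II- from the ear epidermis of wild-type FVB/NJ females aged 8 weeks. An intradermal injection of isotype control antibody had been given 7 d earlier to the mice of the isotype library, and of anti-Skint1 to those of the anti-Skint1 library. Skint1 is a keratinocyte membrane protein that the dendritic epidermal T cell (DETC), a γδ T cell of mouse skin with an invariant Vγ5Vδ1 receptor, depends on. Each library came from 1 mouse, if n counts mice for these libraries as it does by default in the study.

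With 1 library per treatment there was no replicate. The treatment and the library cannot be told apart, and no test between treatments is given. Every interval below is an exact 95% interval for counting error only, and UMIs that sit together in a few cells vary more than it shows.

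Type 1 and type 17 name different programmes of lymphocyte help. In the type 1 programme, IL-12 and IL-18 promote interferon-γ, which arms macrophages and T cells against intracellular infection, with TNF and lymphotoxin beside it. In the type 17 programme, IL-1 and IL-23 promote IL-17A and IL-17F, which call in neutrophils, and IL-22, which acts on epithelial cells. In mouse skin, IL-17 comes mainly from γδ T cells other than DETCs and from αβ T cells, while activated DETCs are known for growth factors, interferon-γ, TNF and, in wounds, some IL-17A. Osteopontin, the product of Spp1, is a secreted ligand of integrins and CD44.

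Several members are neighbours in the genome (GRCm38, GENCODE vM21). Tnf lies at chr17:35199381-35202007 and Lta at chr17:35203165-35205351, both on the minus strand with 1157 bases between them. Il17a lies at chr1:20730905-20734496 on the plus strand and Il17f at chr1:20777146-20790617 on the minus strand, 42649 bases apart. Ifng at chr10:118441046-118445892 and Il22 at chr10:118204942-118210047 are both on the plus strand, 230998 bases apart. Il2 at chr3:37120523-37125959 on the minus strand and Spp1 at chr5:104435118-104441050 on the plus strand are alone.

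The letters TATAAA, a form of the TATA box that sets where transcription starts, were searched for on the gene strand in the 60 bases before each RefSeq start (GRCm38.p6). They were found for 5 of the 8 members and in 2.87% of 32851 promoter entries of the same length. The 5 windows are printed 5′ to 3′ on the gene strand, with TATAAA in capitals, to show how alike its place is in Ifng, Tnf, Il2 and the Il17a and Il17f pair:
Ifng, chr10:118440986-118441045, plus strand: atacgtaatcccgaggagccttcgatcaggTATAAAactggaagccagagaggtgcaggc
Tnf, chr17:35202008-35202067, minus strand: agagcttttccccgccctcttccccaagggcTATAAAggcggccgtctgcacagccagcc
Il2, chr3:37125955-37126014, minus strand: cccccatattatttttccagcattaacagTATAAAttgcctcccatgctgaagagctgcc
Il17a, chr1:20730845-20730904, plus strand: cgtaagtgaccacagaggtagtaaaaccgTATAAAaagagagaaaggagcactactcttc
Il17f, chr1:20784271-20784330, minus strand: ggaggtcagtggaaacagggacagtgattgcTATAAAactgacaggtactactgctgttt

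The capitals began 30, 29, 31, 31 and 29 bases before the start, in the order printed. Lta, Il22 and Spp1 did not hold these letters in their 60 bases. They first held them 167, 170 and 211 bases before the start, within windows of 250 bases that hold them in 7.59% of all entries. Another RefSeq start of Spp1, at chr5:104436192, did not hold them in its 250 bases. TGANTCA, the letters that AP-1 factors such as Fos and Junb are known to bind, was searched for on both strands of the 250 bases. It was present in Il17a, 244 bases before the start, and in 6.75% of all entries. A match of letters is a description of these windows and says nothing of which factor was bound.

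A barcode counted as a cell if it had 500 to 2500 genes and no more than 12% of its UMIs from mitochondrial genes, which gave 4242 in the isotype and 5961 in the anti-Skint1 library, with medians of 4046.5 and 3604 UMIs. 5 cell barcodes were common to both. They were put in 4 classes by counts of a few genes in each cell, none of them a cytokine. DETCs had at least 3 Trdc and 3 Cd3 UMIs and no UMI of Trac, Cd4, Cd8a or Cd8b1, and numbered 3544 (83.5% of cells) and 4945 (83.0%). T cell receptor β constant genes were not part of the gate, and DETCs held Trbc1 at 1491 and 1250 CPM (UMIs of a gene per 1000000 UMIs of the class) and Trbc2 at 1097 and 979 CPM. The classes of αβ T cells (197 and 213 cells), innate lymphoid cells or ILCs (82 and 139) and IL-17 γδ T cells (78 and 91) were small. Cells in no class numbered 399 and 637. The 8 DETC markers summed to 26824 and 26756 CPM in DETCs, 15021 and 16876 in cells of no class, 5213 and 6329 in αβ T cells, 4105 and 3076 in IL-17 γδ T cells and 418 and 328 in ILCs, but Trdc, Trdv4 and the Cd3 genes among them were used by the gates. Of the DETC markers that no gate used, Cd7 was at 2692 and 3106 CPM in DETCs and 352 and 549 CPM in αβ T cells, Fcer1g at 2372 and 2527 CPM against 366 and 509 CPM, and Tcrg-V5 at 59.0 and 62.6 CPM against 0 and 3.59 CPM. A cell could pass more than 1 gate: 20 and 18 cells passed the DETC and the IL-17 γδ gate, 20 and 14 the αβ and the IL-17 γδ gate, 10 and 20 the ILC and the IL-17 γδ gate and 9 and 14 the αβ and the ILC gate. The IL-17 γδ gate asked for 2 UMIs of 5830411N06Rik, Blk and Sox13 together and not for Trdc. Of its cells, 29 of 78 and 41 of 91 passed no other gate, so most cells of that class also met the definition of another. The ILC class also held keratinocyte RNA, with 4 and 5 of 5 keratinocyte markers at 449 and 3609 CPM, against 30.9 and 39.7 CPM in DETCs, and myeloid RNA at 1316 and 2012 CPM.

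**Figure D1:**
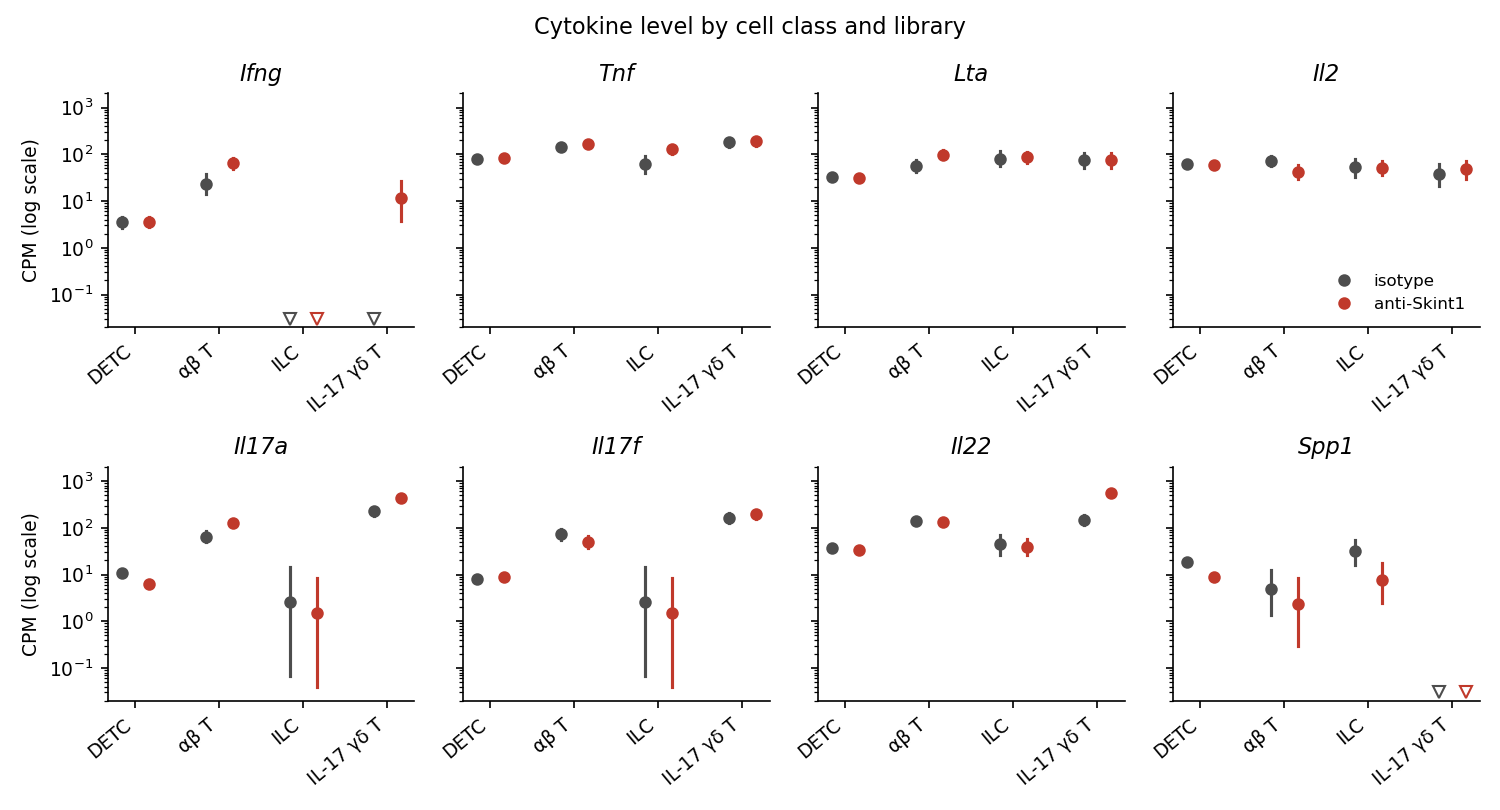
Level of each cytokine in CPM (y axis, log scale) in DETCs, αβ T cells, ILCs and IL-17 γδ T cells of the isotype and anti-Skint1 libraries, with exact 95% intervals for counting error; open triangles mark classes with 0 UMIs. Tnf, Lta and Il2 had UMIs in every class, Il17a stood at 226 and 429 CPM in IL-17 γδ T cells against 11.0 and 6.31 CPM in DETCs, and Spp1 had no UMI in IL-17 γδ T cells.

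Tnf, the proinflammatory cytokine that acts through the TNF receptors, was the most widely detected member in DETCs. It had 1192 UMIs in 728 of 3544 DETCs (20.5%) of the isotype library and 1596 UMIs in 1046 of 4945 (21.2%) of the anti-Skint1 library. Most of these cells held 1 UMI (64.8% and 68.8%) and no DETC held more than 9, so the gene was spread thinly over many cells. Its level was 81.3 CPM (interval 76.8 to 86.1) and 85.3 CPM (81.2 to 89.6), a log2 ratio of anti-Skint1 over isotype of 0.07 (-0.04 to 0.18). αβ T cells stood at 145 and 166 CPM and IL-17 γδ T cells at 181 and 191 CPM, above DETCs in both libraries by 0.83 and 0.96, and by 1.16 and 1.16, on the log2 scale. In ILCs it was 62.7 CPM from 24 UMIs and 127 CPM from 84 UMIs, a log2 ratio of 1.02 (0.35 to 1.74). The anti-Skint1 ILCs had 2 cells with 19 and 13 Tnf UMIs, and their keratinocyte and myeloid RNA was higher as well. Without barcodes gated as keratinocytes the ratio was 1.16, and the part of myeloid RNA was not tested.

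Il2, the growth factor of T cells, was spread over DETCs in a like manner. It had 925 UMIs in 642 DETCs (18.1%) of the isotype library and 1109 UMIs in 811 DETCs (16.4%) of the anti-Skint1 library. The highest cell held 14 UMIs in the isotype library, while 2 cells of the anti-Skint1 library held 46 and 21. DETCs stood at 63.1 CPM (59.1 to 67.3) and 59.3 CPM (55.8 to 62.9), with a log2 ratio between libraries of -0.09 (-0.22 to 0.04). Unlike the other members apart from Spp1, Il2 was not 2-fold higher in any other class. αβ T cells were at 72.4 and 41.8 CPM, ILCs at 52.2 and 51.6 CPM and IL-17 γδ T cells at 37.3 and 47.6 CPM. In αβ T cells the libraries differed by -0.79 (-1.44 to -0.16) on the log2 scale, from 58 and 35 UMIs.

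Lta encodes lymphotoxin-α, which acts alone through TNF receptors or with lymphotoxin-β on the cell surface. DETCs held 483 UMIs in 348 cells (9.82%) of the isotype and 593 UMIs in 441 cells (8.92%) of the anti-Skint1 library, 32.9 and 31.7 CPM, with a log2 ratio of -0.06 (-0.23 to 0.12). All 3 smaller classes were higher in both libraries. αβ T cells were at 56.2 and 98.0 CPM, ILCs at 81.0 and 86.4 CPM and IL-17 γδ T cells at 74.5 and 74.9 CPM. Between libraries, αβ T cells differed by 0.80 (0.26 to 1.36) on the log2 scale, whereas ILCs and IL-17 γδ T cells differed by 0.09 and 0.01. The excess of ILCs over DETCs, 1.30 and 1.45 on the log2 scale, depended on the upper limit of 2500 genes: with no such limit ILCs were lower than DETCs, at -0.34 and -0.41.

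Ifng, which encodes interferon-γ, was rare in DETCs 7 d after either antibody. It had 52 UMIs in 13 of 3544 DETCs (0.367%, interval 0.195% to 0.626%) and 68 UMIs in 32 of 4945 (0.647%, 0.443% to 0.912%). In the isotype library the 3 highest DETCs held 18, 11 and 7 UMIs and 5 cells held 82.7% of the total; in the anti-Skint1 library the highest held 8, 6 and 6 and the top 5 held 44.1%. The levels, 3.55 and 3.64 CPM, gave a log2 ratio of 0.04 (-0.51 to 0.58), and leaving out the top 5 DETCs of both libraries moved the ratio to 1.73. Because the isotype DETCs were deeper, with a median of 4027.5 UMIs against 3577, each DETC was also thinned to 2000 UMIs, which left out 134 and 202 shallower cells. The thinned shares with a UMI were 0.235% and 0.380% for Ifng, 11.9% and 13.2% for Tnf, 10.3% and 9.30% for Il2 and 5.87% and 5.10% for Lta.

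αβ T cells held more Ifng than DETCs. They had 19 UMIs in 10 of 197 cells in the isotype and 54 UMIs in 18 of 213 cells in the anti-Skint1 library, or 23.7 CPM (14.3 to 37.1) and 64.6 CPM (48.5 to 84.2). The highest isotype αβ T cell held 4 UMIs, and the highest anti-Skint1 αβ T cell 20. The log2 ratio between libraries was 1.44 (0.67 to 2.28), and 1.22 to 2.12 over the other settings. Cells in no class had 60 and 68 Ifng UMIs, 34.5 and 27.1 CPM, above αβ T cells in the isotype library and below them in the anti-Skint1 library. Their log2 ratio between libraries was -0.35 (-0.87 to 0.18), and 37 of the 60 isotype UMIs were in 1 cell. Among αβ T cells with a CD8 gene and no Cd4, 4 of 25 cells held 4 UMIs and 8 of 17 cells held 16 UMIs. Among those with Cd4 and no CD8 gene, 50 and 51 cells held 7 and 28 UMIs, 20 of the 28 in the same cell. ILCs had no Ifng UMI in 82 and 139 cells, which, with 3 counts as the limit that a count of 0 allows, leaves a share of cells with a UMI of up to 3.66% and 2.16%, and IL-17 γδ T cells had none in 78 cells and 5 UMIs in 1 of 91.

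**Figure D2:**
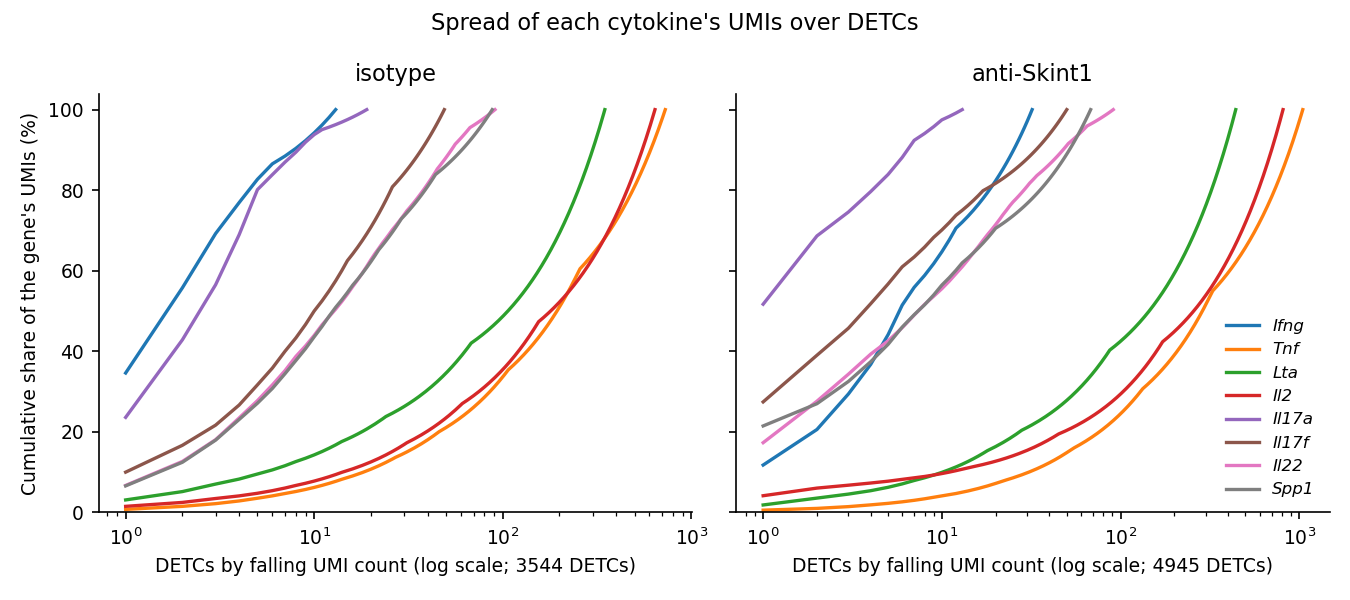
Cumulative share of a cytokine's UMIs (y axis, %) held by DETCs ranked from the highest UMI count down (x axis, log scale), for the isotype (left) and anti-Skint1 library (right). The curves of Tnf, Il2 and Lta climb slowly over many cells, while the 5 highest DETCs held 80.1% and 83.9% of Il17a UMIs and 82.7% and 44.1% of Ifng UMIs.

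Il17a, the founding IL-17 cytokine, was also found in few DETCs. It had 161 UMIs in 19 DETCs (0.536%) of the isotype library, with 38, 31 and 22 in the highest, and 118 UMIs in 13 DETCs (0.263%) of the anti-Skint1 library, with 61, 20 and 7 in the highest. A small number of bright cells held most of the UMIs in both libraries. DETCs stood at 11.0 CPM (9.35 to 12.8) and 6.31 CPM (5.22 to 7.55), a log2 ratio of -0.80 (-1.16 to -0.45). Of those UMIs, 80 of 161 and 103 of 118 were in cells that also passed the IL-17 γδ gate, which were 6 of the 19 cells and 7 of the 13. Trdv4, the variable gene of the DETC receptor's δ chain, had a UMI in 14 of the 19 and 11 of the 13 cells, against 88.4% and 83.8% of all DETCs. In the anti-Skint1 library all 7 DETCs with 5 Il17a UMIs or more had Trdv4, and 5 of them passed the IL-17 γδ gate. A Trdv4 UMI therefore did not set cells of the DETC gate apart from those of the IL-17 γδ gate. In DETCs that passed no other gate, Il17a was at 5.57 and 0.81 CPM. With DETCs held to those with a Trdv4 UMI, the ratio between libraries was -0.11. Thinned to 2000 UMIs, 0.469% and 0.232% of DETCs held an Il17a UMI.

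IL-17 γδ T cells held 91 Il17a UMIs in 7 of 78 cells of the isotype library and 189 UMIs in 10 of 91 cells of the anti-Skint1 library. That was 226 CPM (182 to 278) and 429 CPM (370 to 494), 20.6-fold and 68.0-fold the DETC level, or 4.36 and 6.09 on the log2 scale. With cells of 1 gate only, the levels were 75.8 and 156 CPM, which were 3.77 and 7.60 above DETCs on the log2 scale. The anti-Skint1 total had 61, 55 and 29 UMIs in its 3 highest cells; the cell with 61 also passed the DETC gate, the cell with 55 also passed the αβ gate and the cell with 29 passed no other gate. αβ T cells had 52 UMIs in 9 cells and 105 UMIs in 10 cells, 64.9 and 126 CPM. The log2 ratio between libraries was 0.95 (0.46 to 1.46) in αβ T cells and 0.92 (0.56 to 1.30) in IL-17 γδ T cells, opposite in sign to DETCs. For αβ T cells in 1 gate only it was -0.21, and with each IL-17 γδ T cell given equal weight it was -0.01. Il17a UMIs of αβ T cells were in cells with Cd4 (37 and 43 UMIs) or with neither Cd4 nor a CD8 gene (15 and 62), and none were in cells with a CD8 gene alone. ILCs had 1 Il17a UMI in each library.

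Il17f, a cytokine of the same receptor as Il17a, reached more DETCs with fewer UMIs each. DETCs had 120 UMIs in 49 cells (1.38%) and 164 UMIs in 50 cells (1.01%), with highest cells of 12 and 45. Levels were 8.19 CPM (6.79 to 9.79) and 8.77 CPM (7.48 to 10.2), a log2 ratio of 0.10 (-0.25 to 0.45). The ratio turned negative in some settings, to -0.34 with DETCs of 1 gate only, -0.56 without the 5 highest cells and -1.63 at 5% mitochondrial UMIs. Cells that also passed the IL-17 γδ gate held 28 of the 120 and 71 of the 164 UMIs, so most DETC Il17f lay outside that gate. Thinned shares were 0.880% and 0.696%. IL-17 γδ T cells stood at 162 and 197 CPM and αβ T cells at 73.7 and 50.2 CPM, while ILCs had 1 UMI in each library. With cells of 1 gate only, IL-17 γδ T cells were at 6.89 and 16.1 CPM and DETCs at 6.32 and 5.0 CPM, so that the isotype excess over DETCs was 0.12 on the log2 scale, and αβ T cells were at 34.5 and 39.4 CPM. Cells with 1 UMI or more of both Il17a and Il17f numbered 12 and 7 over all cells. Over the 8 class and library profiles, Il17f was the gene of closest likeness to Il17a among 11114 genes (Pearson r 0.978 of log2(CPM + 10)), followed by Ppie and Il1r1, the IL-1 receptor. The gene closest to Ifng was Ska1 (0.992), to Tnf Gm14005 (0.964), to Lta Rpl7 (0.969), to Il2 Lap3 (0.961), to Il22 Rbm34 (0.969) and to Spp1 Nfe2l1 (0.967). The 8 profiles share cells and libraries, and 8 points let many genes come close.

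Il22, the epithelial-acting cytokine of the IL-10 family, had bright cells in DETCs outside the IL-17 γδ gate. It had 537 UMIs in 91 DETCs (2.57%, interval 2.07% to 3.14%) of the isotype library and 641 UMIs in 91 DETCs (1.84%, 1.48% to 2.25%) of the anti-Skint1 library. In each library 31 DETCs held 5 UMIs or more; the highest held 36, 32 and 29 in the isotype and 111, 66 and 43 in the anti-Skint1 library. The levels were 36.6 CPM (33.6 to 39.9) and 34.3 CPM (31.7 to 37.0), a log2 ratio of -0.10 (-0.26 to 0.07). In the isotype library none of the 537 UMIs was in a cell that passed the IL-17 γδ gate, and in the anti-Skint1 library 182 of 641 UMIs were, in 4 cells. Thinned shares were 2.08% and 1.48%. DETCs with Il22 carried Trdv4 in 92.3% and 85.7% of cells, beside 88.4% and 83.8% of all DETCs.

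**Figure D3:**
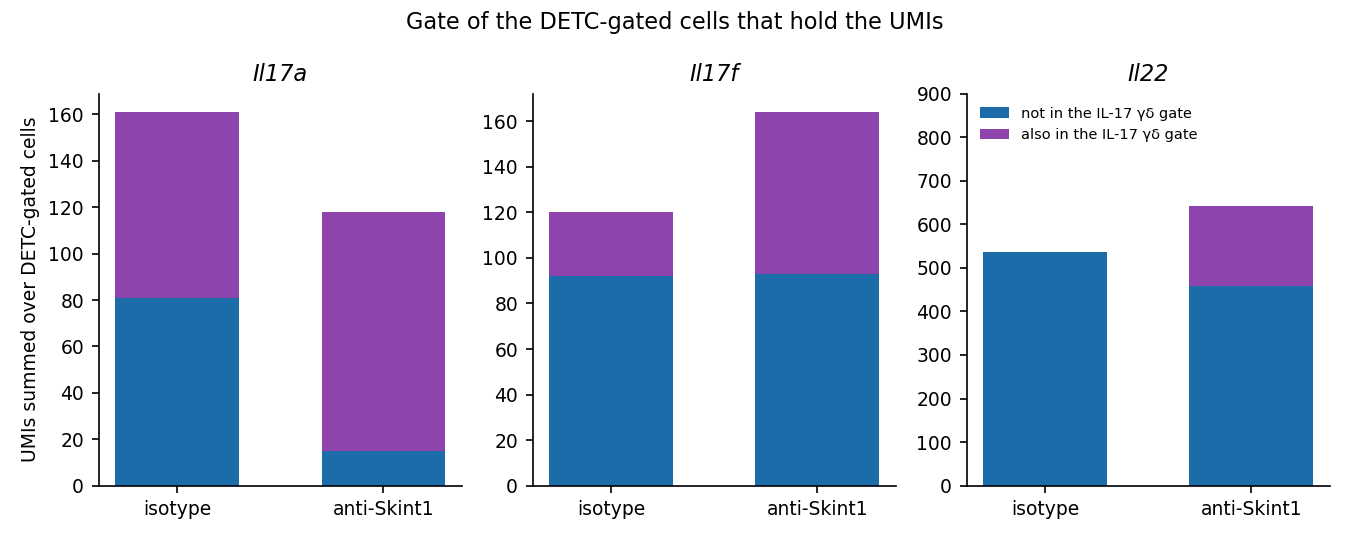
UMIs of Il17a, Il17f and Il22 summed over DETC-gated cells (y axis) in the isotype and anti-Skint1 libraries, split by whether the cell also passed the IL-17 γδ gate. For Il17a 80 of 161 and 103 of 118 UMIs were in cells of both gates, for Il17f 28 of 120 and 71 of 164, and for Il22 0 of 537 and 182 of 641.

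αβ T cells had Il22 at 142 and 135 CPM, in 16 cells of each library, a log2 ratio of -0.08. IL-17 γδ T cells had 60 UMIs in 5 cells and 239 UMIs in 12 cells, 149 CPM (114 to 192) and 542 CPM (476 to 615), a log2 ratio of 1.86 (1.45 to 2.30). That difference turned on cells of more than 1 gate, since 2 DETC-gated cells held 111 and 66 of the 239 UMIs. In IL-17 γδ T cells of 1 gate only, the level was 296 and 70.0 CPM and the ratio -2.08. ILCs, a class known for IL-22 in the gut, were at 44.4 and 39.4 CPM from 17 and 26 UMIs. The mouse genome holds a near copy of Il22, Iltifb, 79581 bases away; 31.5% of the 50-base stretches in the last 500 bases of the Il22 transcript also occur in it. Iltifb had 0 and 2 UMIs in DETCs, 6 and 1 in αβ T cells, 6 and 4 in ILCs and 3 and 4 in IL-17 γδ T cells. How reads common to Il22 and Iltifb were counted cannot be told from the matrices, so Il22 values are uncertain to that extent. The same share was 30.6% for Il2, with Ntan1, 8.23% for Spp1, with Gm42793, and 0 for the other 5 members.

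Spp1 was the member that differed by 2-fold or more between the libraries in DETCs as gated here. It had 273 UMIs in 88 of 3544 DETCs (2.48%) of the isotype library, with 18, 16 and 15 in the highest, and 163 UMIs in 68 of 4945 DETCs (1.38%) of the anti-Skint1 library, with 35, 9 and 9. There were 16 and 7 DETCs with 5 UMIs or more. The level was 18.6 CPM (16.5 to 21.0) and 8.71 CPM (7.43 to 10.2), 2.14-fold higher in the isotype library; on the log2 scale the ratio was -1.10 (-1.38 to -0.81). Thinned to 2000 UMIs per cell, 1.82% (1.40% to 2.32%) and 0.759% (0.532% to 1.05%) of DETCs held a UMI. The ratio lay between -0.95 and -1.42 over the other settings, the latter without the 5 highest DETCs of each library.

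Outside DETCs Spp1 had few UMIs, but its level was not lower in every class. αβ T cells had 4 and 2 UMIs, at -1.90 and -1.87 against DETCs on the log2 scale. ILCs had 12 and 5 UMIs, of which 10 of the 12 were in 1 cell. ILC levels were 31.3 and 7.58 CPM, against 18.6 and 8.71 CPM in DETCs. The log2 ratios of ILCs over DETCs were 0.75 (-0.22 to 1.58) and -0.20 (-1.84 to 1.05). IL-17 γδ T cells had none in 78 and 91 cells, so that DETCs were at least 2.50-fold and 1.28-fold higher, with 3 counts taken as the limit that a count of 0 allows. Cells in no class had 36 and 11 UMIs, 20.7 and 4.39 CPM, a log2 ratio of -2.24 (-3.36 to -1.23). That value rested on 3 isotype cells with 18, 10 and 5 UMIs, and the shares of cells with a UMI, thinned to 2000 UMIs, were 0.279% and 0.531%, the other way round. None of the 20 and 18 DETCs that also passed the IL-17 γδ gate held an Ifng or Spp1 UMI. Of all DETCs, 0.367% and 0.647% held Ifng and 2.48% and 1.38% held Spp1, so that few cells cannot show a difference.

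In DETCs, 1 of the 8 members, Spp1, differed by 2-fold or more between the libraries. Of 10798 genes with at least 50 UMIs in DETCs of both libraries together, 0.204% were 2-fold higher or more in the anti-Skint1 library, and 0 of the 8 members were. Lower by 2-fold or more were 0.324% of genes and 1 of the 8 members, a larger share that rests on a single gene. The median log2 ratio was -0.07 over the members and -0.03 over all tested genes.

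**Figure D4:**
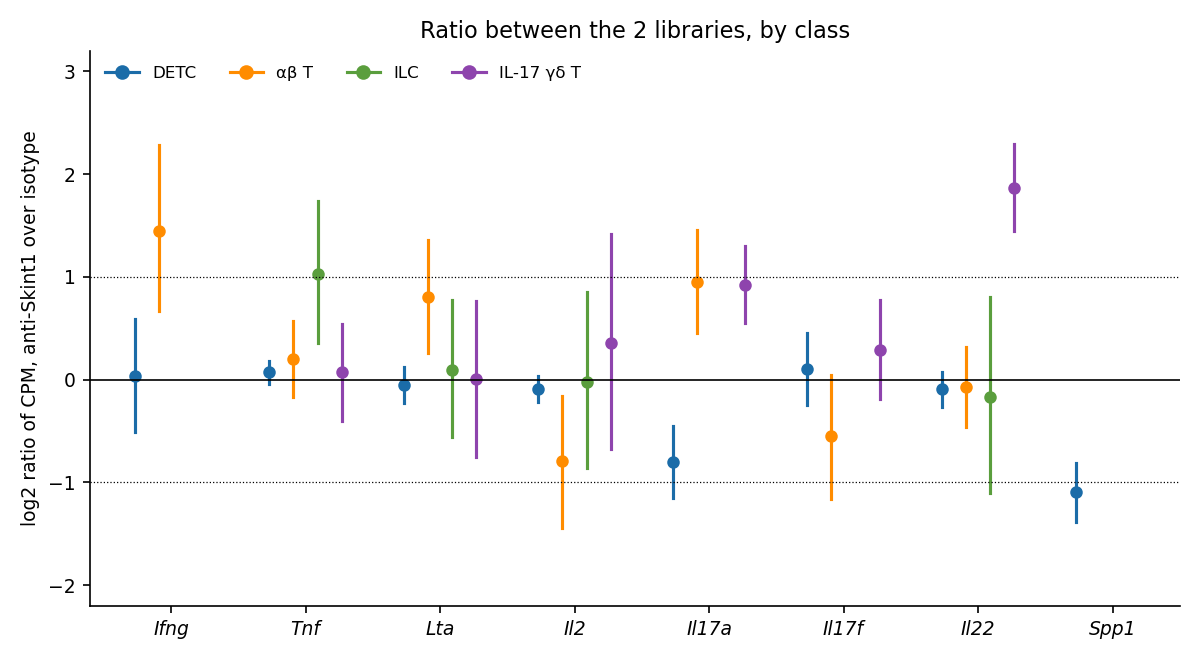
Log2 ratio of CPM, anti-Skint1 over isotype (y axis), for each cytokine in 4 classes, with exact 95% intervals for counting error; dotted lines mark 2-fold and pairs under 20 UMIs in all are left out. In DETCs Tnf, Lta, Il2, Il17f, Il22 and Ifng lie within 0.10 of 0, Il17a is at -0.80 and Spp1 at -1.10, while Ifng in αβ T cells is at 1.44 and Il22 in IL-17 γδ T cells at 1.86.

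Between classes more members stood apart. In αβ T cells against DETCs, 6.1% of tested genes of the isotype library and 5.45% of the anti-Skint1 library were 2-fold higher or more; so were 4 of the 8 members (Ifng, Il17a, Il17f and Il22) and 5 (with Lta). In IL-17 γδ T cells the shares of all genes were 6.92% and 6.79%, and 5 members (Tnf, Lta, Il17a, Il17f and Il22) and 6 (with Ifng, from 5 UMIs in 1 cell) passed. With cells of 1 gate only, 4 and 5 members passed: isotype Il17f, at 0.12 on the log2 scale, and anti-Skint1 Tnf, at 0.68, did not. In ILCs the shares were 7.67% and 6.91%, with 1 member in each library, Lta. Lower by 2-fold or more were 17.5% and 17.0% of genes in αβ T cells, 19.0% and 20.6% in ILCs and 18.2% and 18.7% in IL-17 γδ T cells. The members among them were Spp1 in αβ T cells of both libraries, from 4 and 2 UMIs, and Il17a and Il17f in ILCs of both, from 1 UMI each. Spp1 in IL-17 γδ T cells of the isotype library, from 0 UMIs, was also among them. These members reached 50 UMIs through DETCs, so the calls of lower levels rest on few UMIs in the smaller class. Without the 5 highest cells of each class, 2 and 4 members were past 2-fold in αβ T cells, 2 and 2 in IL-17 γδ T cells and 0 and 0 in ILCs.

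Free RNA from broken cells can give UMIs to cells that do not express a gene. In barcodes of 1 to 100 UMIs the members were present at levels which, at 5% of a cell's RNA, would account for 2.09% to 9.66% of their DETC UMIs, the highest for Ifng. Barcodes gated as keratinocytes numbered 1 and 12, with medians of 5481 and 7348.5 UMIs, and held 1 Tnf UMI between them. For a member with 0 UMIs, the exact interval of the share with a UMI reached 97.5% and 26.5%. So few barcodes cannot show how much free RNA the cells held. Doublets scored by Scrublet and marked by rate took 3.22% and 4.23% of DETCs. They took 2 of 6 anti-Skint1 DETCs with 5 Ifng UMIs or more, 2 of 7 with Lta, 1 of 31 isotype DETCs with Il22 and 1 of 16 with Spp1, and none of those with Il17a, Il17f, Tnf or Il2.

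Members were detected together to unequal degrees. Tnf had a UMI in 23 of 38 cells with Il17a (60.5%) of the isotype library and 11 of 27 (40.7%) of the anti-Skint1 library, beside 21.3% and 22.1% of all cells. It was also in 38.0% and 44.9% of cells with Il17f and 31.5% and 35.0% of cells with Il22. Among DETCs, Tnf was in 25.9% and 25.2% of cells with Lta and in 24.8% and 25.9% of cells with Il2, beside 20.5% and 21.2% of all. Il22 was in 2 of 38 and 6 of 27 cells with Il17a (5.26% and 22.2%), beside 2.99% and 2.35% of all cells. Il17a was in 0 of 28 and 1 of 74 cells with Ifng, beside 0.896% and 0.453% of all cells. So few cells cannot show whether Ifng and Il17a were kept apart. Deeper cells show more genes, so these shares describe the cells as sequenced.

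DETCs with and without a UMI of a member were then compared at 2000 UMIs per cell for 20 genes of T cell activation, cytotoxicity and cell cycle, of which 19 had at least 50 UMIs. In the 407 and 625 Tnf-positive DETCs, 15 of the 19 genes had a log2 ratio above 0 in each library, and the group was not tested. The counts were 14 and 12 for Lta and 14 and 13 for Il2. Over all tested genes the median log2 ratio was -0.03 and -0.04 for Tnf, -0.04 and -0.03 for Lta and -0.03 and -0.03 for Il2. Egr1, a transcription factor induced within minutes of receptor signals, stood at 473 against 288 CPM in the isotype and 633 against 378 CPM in the anti-Skint1 library, log2 ratios of 0.71 and 0.74. Cd69, an early activation antigen, was at 797 against 504 and 794 against 548 CPM (0.66 and 0.54). Nr4a1, a nuclear receptor that reports T cell receptor signals, differed by 0.49 and 0.50, and Fos, a subunit of AP-1, by 0.37 and 0.44. These 4 genes were below 2-fold in both libraries. In all, 1 of the 19 genes (Gzmc, a granzyme of cytotoxic granules) passed 2-fold in the isotype library, 0 without its 5 highest cells, and 0 in the anti-Skint1 library. Of all genes, 0.565% and 0.347% passed.

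Lta-positive DETCs (200 and 242 cells) had Egr1 at -0.09 and 0.04, Nr4a1 at -0.15 and -0.18, Fos at -0.10 and 0.10 and Cd69 at 0.35 and 0.20. Whether they differed from Tnf-positive DETCs was not tested. Higher by 2-fold or more were 3 of 19 genes in the isotype library (Xcl1, Ramp1 and Cd82) and 2 in the anti-Skint1 library (Xcl1 and Cd82), where 1.61% and 1.43% of all genes were. Cd82, a tetraspanin of the cell surface, was the companion that held in both without the 5 highest cells, at 1.55 and 1.13 with all cells. Xcl1, a chemokine for cross-presenting dendritic cells, was at 1.38 and 2.49, but in the anti-Skint1 library at 0.32 without the 5 highest cells. Il2ra, the high-affinity chain of the IL-2 receptor, was at 3.09 and 2.84 from 9 and 5 UMIs in the Lta-positive cells, and was too sparse to be counted among the 19.

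Il2-positive DETCs (352 and 441 cells) had Xcl1 at 795 against 272 CPM and 312 against 69.6 CPM, log2 ratios of 1.55 and 2.16, which were 0.62 and 0.69 without the 5 highest cells. Gzmc was at 0.91 and 1.79. The counts past 2-fold were 2 of 19 (Xcl1 and Gzmb) and 2 of 19 (Xcl1 and Gzmc), with 0 and 1 left without the 5 highest cells, and 0.589% and 0.604% of all genes passed. Gzmb, the main granzyme of killer cells, differed in sign between libraries, at 1.39 and -0.39. Hsph1, a heat shock protein, was at 0.59 and 0.50, and Tnf itself at 0.57 and 0.50.

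**Figure D5:**
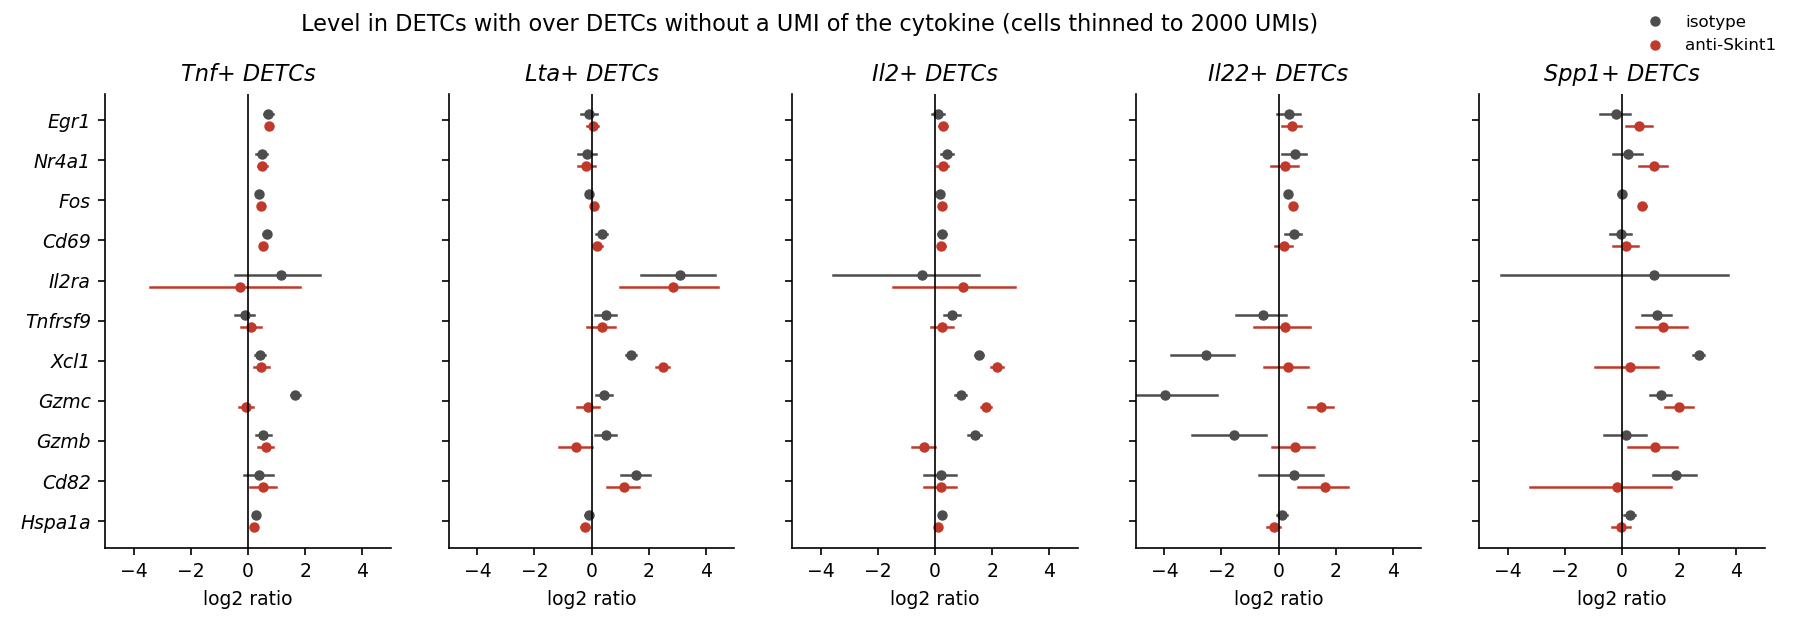
Log2 ratio of CPM in DETCs with a UMI of Tnf, Lta, Il2, Il22 or Spp1 over DETCs without (x axis), for 11 companion genes in the isotype and anti-Skint1 libraries, cells thinned to 2000 UMIs; lines are exact 95% intervals for counting error, cut at the axis ends. Egr1 in Tnf-positive DETCs is at 0.71 and 0.74 and Cd82 in Lta-positive DETCs at 1.55 and 1.13, whereas Gzmc in Il22-positive DETCs is at -4.00 and 1.49.

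Il22-positive DETCs (71 and 70 cells) had Fos at 0.34 and 0.52 and Ctsw, a protease of cytotoxic lymphocytes, at -0.31 and -0.55. Xcl1 and Gzmc lay on opposite sides of 0 in the 2 libraries, a difference that was not tested. Xcl1 was at -2.56 and 0.32, from 8 and 16 UMIs in the positive cells, and Gzmc at -4.00 and 1.49, from 2 and 50. Areg, an epidermal growth factor receptor ligand, was at 0.79 and 0.12. Past 2-fold were 0 of 19 genes in the isotype and 3 of 19 (Gzmc, Ramp1 and Cd82) in the anti-Skint1 library, where 4.05% and 5.63% of all genes were.

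Il17f-positive DETCs were 30 and 33, and Spp1-positive DETCs 62 and 36; both were compared with a minimum of 30 cells that was chosen after the counts were seen. The Il17f-positive cells had Fos at 0.72 and 0.76, Nr4a1 at 1.08 and 0.65 and Cd69 at 1.15 and 0.50. Past 2-fold were 3 of 19 genes (Nr4a1, Cd69 and Ramp1) in the isotype and 2 of 19 (Areg and Cd82) in the anti-Skint1 library, beside 9.16% and 10.6% of all genes. Without the 5 highest cells Areg fell below 2-fold, from 1.01 to 0.48 on the log2 scale, and Mki67, from 1 UMI in the positive cells, passed in its place.

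In Spp1-positive DETCs, Gzmc was at 548 against 214 CPM and 514 against 128 CPM, log2 ratios of 1.36 (0.98 to 1.71) and 2.01 (1.49 to 2.48). Tnfrsf9, the costimulatory receptor 4-1BB, was at 282 against 120 CPM and 167 against 61.1 CPM (1.24 and 1.45). Both were past 2-fold in each library. Xcl1 was at 1911 against 297 CPM in the isotype library (2.69) and 111 against 92.0 CPM in the anti-Skint1 library (0.27), while Nr4a1 was at 0.20 and 1.11. Past 2-fold were 6 of 19 genes in the isotype and 8 of 19 in the anti-Skint1 library, among them Mki67 from 4 and 3 UMIs, but the background was also high with so few cells, at 6.9% and 10.9% of all genes. Without the 5 highest cells 6 and 7 passed, with Top2a lost. Neither library had an Il17f UMI in a thinned Spp1-positive DETC. Of all thinned DETCs, 0.880% and 0.696% held one, so that few cells cannot show whether Il17f and Spp1 were kept apart.

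Genes of the same pathways were taken from fixed lists. Of 15 receptor genes, 11 were tested between libraries in DETCs and 0 passed 2-fold in either direction, with a median of -0.16; of all genes, 0.204% were higher and 0.324% lower. Il2ra came closest at -0.98 (-1.58 to -0.40), from 65 and 42 UMIs. Of 14 inducers and transcription factors, 9 were tested and 1 was lower by 2-fold or more: Il23r, the receptor subunit for IL-23, at -1.05 (-1.91 to -0.22) from 34 and 21 UMIs. That is 1 gene of a short list, with few UMIs. Of 12 related cytokines, 5 were tested and 0 passed; Ltb, the partner of Lta, was at 329 and 370 CPM, and Csf2, which encodes GM-CSF, was at 23.7 and 17.7 CPM (-0.42, -0.64 to -0.20).

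Between classes the same lists divided. Il12rb2, the signalling chain of the IL-12 receptor, was at 119 and 95.5 CPM in DETCs, 25.0 and 15.5 CPM in αβ T cells and 7.45 and 2.27 CPM in IL-17 γδ T cells and 0 and 3.03 CPM in ILCs, from 0 and 2 UMIs. Il18r1, the IL-18 receptor, was lowest in DETCs in both libraries, with 4.30 and 4.01 CPM in DETCs, 146 and 152 CPM in αβ T cells, 306 and 226 CPM in ILCs and 256 and 204 CPM in IL-17 γδ T cells. Ahr, a receptor for aryl compounds that type 17 cells use for Il22, was higher in DETCs (226 and 222 CPM) than in αβ T cells (102 and 90.9 CPM). Ifngr1 was higher outside DETCs, at 177 and 153 CPM in αβ T cells against 51.5 and 49.6 CPM, and Ifngr2 lower, at 16.2 and 27.5 CPM against 76.0 and 71.9 CPM. Csf2 stood at 131 and 159 CPM in αβ T cells and at 60.1 and 323 CPM in ILCs. In αβ T cells against DETCs, 3 and 4 of 10 tested receptors, 4 and 4 of 8 inducers and factors and 4 and 3 of 5 related cytokines were 2-fold higher or more, and 2 and 1, 3 and 2, and 1 and 0 were lower. In ILCs 1 and 2 receptors, 3 and 4 inducers and factors and 3 and 3 related cytokines were higher, and 2 and 3, 3 and 3, and 1 and 1 were lower. In IL-17 γδ T cells 3 and 3, 3 and 3, and 3 and 3 were higher, and 0 and 2, 3 and 2, and 0 and 1 were lower. These counts stand beside 6.1% and 5.45% of all tested genes higher and 17.5% and 17.0% lower in αβ T cells, with like shares in the other classes, and the lists are short. The ILC gate itself used Rora, which is among the inducers and factors.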

How the data were processed

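Libraries were made with 10x 3' v3 chemistry from sorted epidermal cells. The authors deposited unfiltered UMI counts of each gene in all barcodes, made with Cell Ranger (3.0.2 per the file header) on mm10 (GRCm38). UMI counts, not lengths, were compared, so levels were compared within a gene and not between genes.

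The study's limits on cells were used (500 to 2500 genes, at most 12% mitochondrial UMIs). UMIs were summed per class and library and divided by the class total. Poisson intervals for CPM, Clopper-Pearson intervals for shares and conditional binomial intervals for ratios were exact at 95%. Ratios needed 20 UMIs in all, and the background over all genes 50. Doublets stayed in, except in an alternative; Scrublet's own threshold marked 1 of 4709 and 0 of 6425 barcodes, so 0.8% per 1000 barcodes were marked, 177 and 330. Python 3.11.15, numpy 2.4.6, scipy 1.17.1, pandas 2.3.3, scanpy 1.11.5 and matplotlib 3.10.9 were used. The ratios and their intervals were checked on simulated Poisson counts, which these intervals assume. UMIs that sit together in a few cells were not simulated, so the check does not cover them.

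The members and lists were chosen with earlier results of these data known. The genes named are the 8 members, list genes that differed 2-fold, the genes of closest profile and the companion genes; Il2ra, Ltb, Csf2 and Areg in DETCs were named after their values were seen. 11 alternatives were planned and 2 more gates and a minimum of 30 positive cells were added after the data were seen.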

Additional observations from a re-analysis of the deposited data

Results flagged for a closer look

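Il17a differed between the libraries in opposite directions in different classes, with a log2 ratio of anti-Skint1 over isotype of -0.80 in DETCs, 0.95 in αβ T cells and 0.92 in IL-17 γδ T cells. Each treatment had 1 library and the difference between classes was not tested. The opposite directions did not hold under every setting: the ratio was -0.21 for αβ T cells of 1 gate only, -0.01 with IL-17 γδ T cells weighted equally and -0.11 with DETCs held to those with a Trdv4 UMI. The classes share cells, since 103 of 118 Il17a UMIs of anti-Skint1 DETCs were in cells that also passed the IL-17 γδ gate.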

How the results depend on the processing

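No paired analysis was possible because each treatment had 1 library. Of 312 library ratios, 282 lay within the counting interval of the reported value. The sign changed in 32, of which 27 had a reported ratio under 0.20 in size. The other 5 were Il17a in αβ T cells (-0.21) and IL-17 γδ T cells (-0.01), Il17f in the same classes (0.19 and -0.26) and Il22 in IL-17 γδ T cells, from 1.86 to -2.08, for αβ T cells and Il22 with cells of 1 gate only and for the others with cells weighted equally. Of 536 ratios between classes, 458 lay within the interval and 19 changed sign, in ILCs over DETCs except for Il2 in isotype αβ T cells. Of ratios of 2-fold or more, 4 changed sign: Lta in ILCs over DETCs of the isotype library was -0.34 with no upper limit on genes and -0.63 at 5% mitochondrial UMIs, the same ratio in the anti-Skint1 library was -0.41 with no upper limit, and Il17f in ILCs over isotype DETCs, from 1 UMI, went from -1.65 to 0.78 at 20% mitochondrial UMIs. The Spp1 ratio in DETCs was -1.42 without the 5 highest cells. Members 2-fold apart between libraries in DETCs, 1 in the report, numbered 0 with no upper limit on genes or with a Trdv4 UMI required, where Spp1 was at -0.95 and -0.98, 2 with 1 gate only (Il17a at -2.79) or with cells weighted equally (Il17a at -1.60), and 3 at 5% mitochondrial UMIs (Il17a at -1.39 and Il17f at -1.63) or without the 5 highest cells (Ifng at 1.73 and Il17a at -1.10). Members 2-fold higher than in DETCs, without the 5 highest cells, were 2 in place of 4 for isotype αβ T cells, 0 in place of 1 for ILCs of either library, and 2 in place of 5 and 2 in place of 6 for IL-17 γδ T cells. For anti-Skint1 cells, ILCs gave 0 with no upper limit on genes and 3 at 5% mitochondrial UMIs, and IL-17 γδ T cells gave 2 at 5%. The causes were not tested. The 5% limit left 16 and 20 ILCs and 24 and 10 IL-17 γδ T cells, which limits what it shows.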
